A study of Mus musculus with 25 samples.

Results

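Heat shock proteins of the cytosol and of mitochondria were followed in the sciatic nerve of mouse models of Charcot-Marie-Tooth disease type 1A (CMT1A), a demyelinating neuropathy caused by an extra copy of the PMP22 gene. The set was chosen by name and holds 10 of the 56956 genes in the table: the Hsp70 genes Hspa1a, Hspa1b and Hspa8, the Hsp90 gene Hsp90aa1, the small heat shock genes Hspb1 and Cryab, the co-chaperone genes Dnajb1, Hsph1 and Bag3, and the mitochondrial Hsp60 gene Hspd1. All 10 passed the filter on low counts, as did 13993 genes in total. Bulk RNA sequencing was done on 25 libraries, 5 in each of 5 groups, with 1 library per age (3, 5, 7, 9 or 12 weeks), the order in which values are listed below. C3 mice carry 5 copies of human PMP22 on a C57BL/6J background, and WT-C3 are C57BL/6J mice. C22 mice carry 10 copies on an FVB/NRJ background, and WT-C22 are FVB/NRJ mice. The group named C3-cJunKO here carries the C3 transgene and, in addition, lacks c-Jun in Schwann cells, where P0Cre was used to delete it, and the strain of that cross is not given in the sources used here. No group was treated. Each library is a pool of nerves from 4 to 5 animals of both sexes, so the libraries of a group differ in age, the p-values measure the spread between pools of different age, and no pool was repeated. The background strain differs between the C3 and C22 lines throughout.

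Chaperones hold unfolded proteins and help them reach their native state. When unfolded proteins accumulate, through heat, cold storage, injury or oxidative stress, the transcription factor HSF1 is released from chaperones, binds heat shock elements and induces the inducible members within minutes to hours, above all Hspa1a, Hspa1b, Dnajb1 and Hsph1. Small heat shock proteins keep clients soluble until Hsp70 takes them over, Dnajb1 delivers clients to Hsp70, Hsph1 exchanges its nucleotide, and Bag3 links it to small heat shock proteins and to autophagy. In nerve, alphaB-crystallin (Cryab) is a known product of myelinating Schwann cells, and mutations of HSPB1 cause an inherited axonal neuropathy. Because dissection itself can induce these genes, a single pool with raised levels of many of them was looked for.

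A heat shock element is a run of GAA units in alternating direction. The 250 bases before the start of the canonical transcript (GENCODE M39, GRCm39) were searched on both strands for the pair of units GAANNTTC or TTCNNGAA and for the longer run GAANNTTCNNGAA, which contains such pairs. Of 21757 promoters of protein-coding genes, 12.3% held a pair and 0.349% held the longer run. A pair was found for Hspa1a, Hspa1b, Hspb1, Cryab, Hsph1 and Hspd1, and the longer run only for Hspd1 among the 10. No match says only that these letters are absent from this window. The stretches are shown because they are the sequence feature that the inducible members are known for. Each is 30 bases around a match, 5′ to 3′ on the strand of the gene, with the GAA and TTC units in capitals.
Hspa1a, chr17:35191218-35191247, minus strand: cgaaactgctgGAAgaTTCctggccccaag
Hspa1b, chr17:35178300-35178329, minus strand: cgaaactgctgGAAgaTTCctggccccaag
Hspb1, chr5:135916665-135916694, plus strand: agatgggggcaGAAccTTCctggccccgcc
Cryab, chr9:50664137-50664166, plus strand: gctaagcctagGAAgaTTCcagtccctgcc
Hsph1, chr5:149559816-149559845, minus strand: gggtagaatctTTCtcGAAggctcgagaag
Hspd1, chr1:55127212-55127241, minus strand: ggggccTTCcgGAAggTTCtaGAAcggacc
The stretches of Hspa1a and Hspa1b are the same in every letter and lie 97 to 104 bases before the start in both. The transcripts also share sequence: 38.1% of the 150-base windows of the Hspa1a transcript occur unchanged in that of Hspa1b. A read pair that lies wholly within shared sequence has no unique place, and how many reads of this pair were lost that way was not measured.

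Depth on genes ran from 2140142 counts in the C3 library of 9 weeks to 49072746, with a median of 24663235. All library names share the same prefix. Whether the pools were collected or prepared in separate batches is not given in the sources used here. The labels were checked on the targeted genes: Jun lay at 26.4 to 31.8 CPM (each library's counts scaled to a common total after TMM) in C3-cJunKO against 94.1 to 125 CPM in C3, and human PMP22 had 25600 to 664778 counts in transgenic libraries and 1 to 83 in wild-type libraries. Scaled, human PMP22 was at 10140 to 13990 CPM in C3 and 9797 to 13950 CPM in C22, and these ranges overlapped although the copy numbers differ. The 5 markers of myelinating Schwann cells used here (Mbp, Prx, Mag, Pllp and Egr2) were detected in every library, with a summed level of 11490 to 35550 CPM. The summed level of 12 markers of skeletal muscle, a tissue rich in Cryab and Hspb1, ran from 8.19 to 11580 CPM and did not follow the groups. Of these 12, 11 passed the filter and were tested. In bulk RNA, fewer cells of a type and less RNA per cell cannot be told apart.

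Per kilobase of the canonical transcript and over all 25 libraries, the small heat shock gene Cryab had the highest level of the 10, at 464 ± 82.3 CPM per kb (SD, n = 25). The constitutive Hsp70 gene Hspa8 followed at 301 ± 75.5 CPM per kb, then Hsp90aa1, a cytosolic Hsp90, at 71.9 ± 9.01 and Hspd1 at 69.8 ± 8.92 CPM per kb, which did not differ beyond their spread. Hspb1 lay at 36.6 ± 11.3 and Bag3 at 23.3 ± 2.22 CPM per kb. The lowest 4 were Dnajb1 at 11.2 ± 1.51, Hsph1 at 9.56 ± 1.71, Hspa1b at 7.80 ± 3.41 and Hspa1a at 3.60 ± 1.15 CPM per kb, where the spreads of Dnajb1, Hsph1 and Hspa1b overlapped. The order differed by group: Hspa1b was at 5.32 ± 1.05 CPM per kb in WT-C3 and at 12.9 ± 1.78 in WT-C22 (SD, n = 5), where its mean exceeded those of Dnajb1 (12.4) and Hsph1 (8.97). The whole transcript was the divisor, so reads of Hspa1a and Hspa1b lost to their shared sequence would lower these levels. Counts of single members ran from 44, for both Hspa1a and Hspa1b in the shallow C3 library of 9 weeks, to 41449 for Hspa8.

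**Figure D1:**
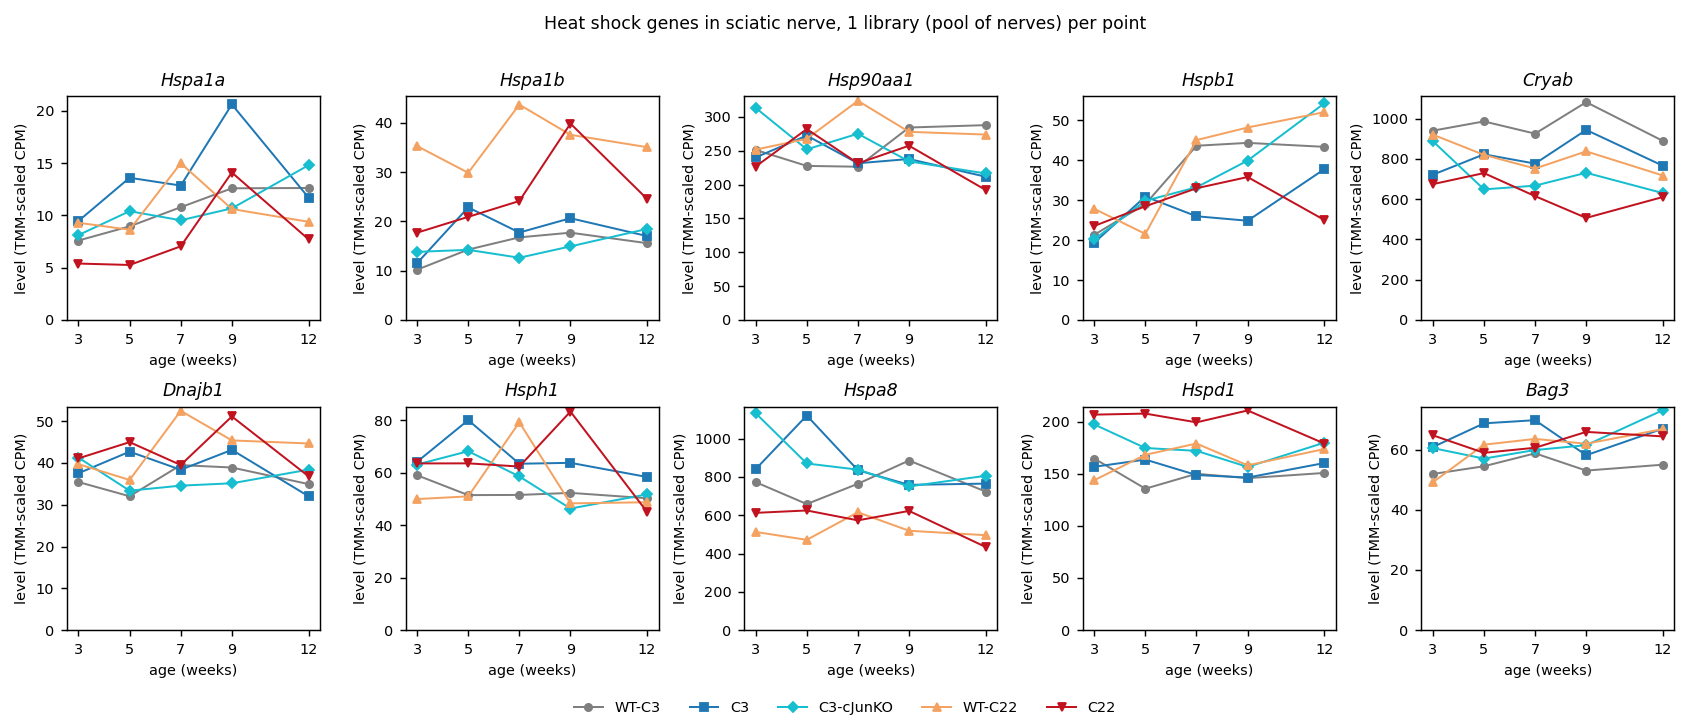
Level of each of the 10 genes (TMM-scaled CPM, linear axes from 0) against age in weeks, with 1 point per library and 1 colour and symbol per group. Hspa1b and Hspa8 separate the FVB/NRJ from the C57BL/6J wild-type libraries, Hspb1 is low at 3 weeks, and WT-C22 at 7 weeks and C22 at 9 weeks peak in several panels.

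C3 was compared with WT-C3 to see what 5 copies of human PMP22 do to these genes. Hsph1 and Bag3, both co-chaperones of Hsp70, were higher in C3, no member passed in the lower direction, and the Hsp70 genes themselves, Hsp90aa1, Dnajb1 and Hspd1 did not pass. Of all 13993 genes tested, 12.5% were higher and 11.4% lower, so the 2 of 10 in the higher direction and 0 of 10 in the lower were near this background. The median log2 fold change of the 10 was 0.13, against 0.00 over all genes.

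Hsph1 is the Hsp110 nucleotide exchange factor of Hsp70. In order of age it lay at 59.0, 51.5, 51.5, 52.3 and 50.3 CPM in WT-C3 and at 64.1, 80.0, 63.4, 63.8 and 58.4 CPM in C3. C3 was higher at each of the 5 ages, while the ranges of the groups overlapped slightly because WT-C3 at 3 weeks exceeded C3 at 12 weeks. The difference was 1.25-fold (log2 0.32, SE 0.087, adjusted p = 0.0215 in edgeR's quasi-likelihood test), and the adjusted p was 0.102 when all 25 libraries shared 1 fit. Bag3, the co-chaperone that steers Hsp70 clients to autophagy, was at 51.9, 54.5, 58.8, 53.0 and 55.0 CPM in WT-C3 and at 60.8, 68.7, 69.8, 58.1 and 67.0 CPM in C3. It was also higher at all 5 ages, with C3 at 9 weeks inside the range of WT-C3. The difference was 1.19-fold (log2 0.25, SE 0.074, adjusted p = 0.0277). The call for Bag3 was lost on leaving out any of 5 libraries, WT-C3 at 3, 5 or 9 weeks or C3 at 5 or 7 weeks, with adjusted p between 0.0519 and 0.0805.

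Cryab, which encodes alphaB-crystallin, was at 940.3, 986, 926, 1082 and 889.5 CPM in WT-C3 and at 722, 823, 777, 944 and 766 CPM in C3. C3 was the lower library at each of the 5 ages, with 1 C3 library, that of 9 weeks, inside the range of WT-C3. The log2 difference of -0.26 (SE 0.090, adjusted p = 0.0509) missed the threshold in the edgeR test and passed it in DESeq2 (adjusted p = 0.0123), and without the shallow C3 library of 9 weeks it was -0.32 (adjusted p = 0.0191). The other small heat shock gene, Hspb1, gave a log2 difference of -0.38 with a wide error (SE 0.22, adjusted p = 0.245). The inducible Hspa1a (log2 0.30, SE 0.20, adjusted p = 0.287) and Hspa1b (log2 0.25, SE 0.19, adjusted p = 0.365) did not pass, although Hspa1b was higher in C3 at 5 of 5 ages. The summed myelin markers ran from 22630 to 32010 CPM in WT-C3 and from 17690 to 25290 CPM in C3, with 1 of 5 higher and 0 of 5 lower in edgeR, and their part in the Cryab values was not tested.

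Among 32 other cytosolic chaperones and co-chaperones, 2 were higher and 6 lower in C3, against 12.5% and 11.4% of all genes. Hspa2, an Hsp70 best known from testis, was 1.93-fold higher (log2 0.95, SE 0.12, adjusted p = 0.000434), and Hspa4l, an Hsp110 relative, was lower by a similar factor (log2 -0.99, SE 0.091, adjusted p = 5.12e-05). Cacybp (log2 -0.49, SE 0.065, adjusted p = 0.000484) and Dnajb6 (log2 -0.37, SE 0.080, adjusted p = 0.00735) were lower. Of the transcription factor list, Hsf1, the master regulator of the heat shock response, was 1.26-fold higher (log2 0.33, SE 0.081, adjusted p = 0.0120), and Hsbp1, which encodes an HSF1-binding protein, was lower (log2 -0.47, SE 0.072, adjusted p = 0.00101). None of the 8 subunits of the cytosolic chaperonin CCT passed in edgeR. Of 12 mitochondrial chaperones and proteases, 1 was higher and 2 were lower, among them Hspe1, the Hsp10 partner of Hspd1 (log2 -0.71, SE 0.16, adjusted p = 0.00918).

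C22 was compared with WT-C22 to see the same for 10 copies of human PMP22. The mitochondrial chaperonin gene Hspd1 was higher in C22, and Cryab and the inducible Hsp70 gene Hspa1b were lower. Of all genes, 21.9% were higher and 20.5% lower, so 1 of 10 and 2 of 10 members are not above that background. The median log2 fold change of the 10 was -0.14, against 0.00 over all genes.

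Hspd1 was at 144, 168, 179, 158 and 174 CPM in WT-C22 and at 207, 208, 199, 211 and 179 CPM in C22. C22 was higher at each of the 5 ages, and the lowest C22 library, of 12 weeks, stood at the level of the highest WT-C22 library, of 7 weeks. The difference was 1.21-fold (log2 0.28, SE 0.077, adjusted p = 0.0122) and stayed below the threshold whichever library was left out. Hspe1, whose gene lies head to head with Hspd1 and whose product caps the Hspd1 ring, was 1.69-fold higher in C22 (log2 0.76, SE 0.19, adjusted p = 0.00791). Hspe1 was at 18.41, 18.87, 17.15, 14.82 and 20.32 CPM in WT-C22 and at 44.55, 36.89, 24.02, 25.18 and 21.32 CPM in C22. The gap was widest at 3 weeks and narrowest at 12 weeks, and whether it differs by age was not tested. Grpel2, a nucleotide exchange factor of mitochondrial Hsp70, was higher too (log2 0.50, SE 0.083, adjusted p = 0.000619). In all, 3 of 12 mitochondrial chaperones and proteases were higher and 2 were lower, against 21.9% and 20.5% of all genes.

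Cryab was at 921, 820.1, 752, 838 and 718 CPM in WT-C22 and at 675, 729.6, 615, 507 and 611 CPM in C22. It was lower in C22 at all 5 ages, most at 9 weeks, and the groups overlapped only through WT-C22 at 12 weeks and C22 at 5 weeks. The log2 difference was -0.37 (SE 0.11, adjusted p = 0.0161). It was -0.30 (adjusted p = 0.0277) without the C22 library of 9 weeks. When libraries were scaled by their total alone, which moved the median of all genes by 0.17 log2, it was -0.21 with an adjusted p of 0.0922. The summed myelin markers ran from 20390 to 35550 CPM in WT-C22 and from 11490 to 16630 CPM in C22, with 2 of 5 lower and 1 of 5 higher, and their part in the Cryab values was not tested.

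The inducible Hsp70 genes varied widely within groups. Hspa1b was at 35.3, 29.9, 43.7, 37.5 and 35.0 CPM in WT-C22 and at 17.7, 20.9, 24.1, 39.8 and 24.5 CPM in C22. C22 was lower at 4 of 5 ages, and at 9 weeks its library exceeded 4 of the 5 WT-C22 libraries. The log2 difference of -0.52 (SE 0.19, adjusted p = 0.0429) passed, but leaving out any of 8 of the 10 libraries lost the call. Hspa1a was at 9.30, 8.64, 15.0, 10.6 and 9.39 CPM in WT-C22 and at 5.40, 5.26, 7.05, 14.1 and 7.72 CPM in C22. All C22 libraries but that of 9 weeks lay below all WT-C22 libraries, and with it the log2 difference was -0.43 (SE 0.27, adjusted p = 0.213). Without that 1 library the differences were -0.74 for Hspa1a (adjusted p = 0.00968) and -0.74 for Hspa1b (adjusted p = 0.000988), and both were then called. Over all 10 omissions the differences ran from -0.74 to -0.26 for Hspa1a and from -0.74 to -0.42 for Hspa1b, and without WT-C22 at 7 weeks, the other library with many members high, that of Hspa1b was -0.44 (adjusted p = 0.121).

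The remaining members did not pass in C22. Hsp90aa1 gave a log2 difference of -0.24 (SE 0.11, adjusted p = 0.0944) and Hspb1 one of -0.44 (SE 0.22, adjusted p = 0.141), while Hsph1 (0.19, SE 0.17), Hspa8 (0.13, SE 0.11), Bag3 (0.05, SE 0.084) and Dnajb1 (-0.04, SE 0.11) lay nearer 0. Of the 32 other cytosolic chaperones and co-chaperones, 5 were higher and 5 lower, against 21.9% and 20.5% of all genes. Hspa4l was lower (log2 -1.47, SE 0.14, adjusted p = 1.29e-05) and Hspa2 higher (log2 0.78, SE 0.069, adjusted p = 6.1e-06). Bag2, which restrains the Hsp70-bound ubiquitin ligase CHIP, was 2.45-fold higher (log2 1.29, SE 0.19, adjusted p = 0.000217), and Hspbp1, a nucleotide exchange factor, 1.34-fold higher (log2 0.42, SE 0.12, adjusted p = 0.0140). Hsf1 was 1.22-fold higher (log2 0.28, SE 0.072, adjusted p = 0.00809) and Hsbp1 lower (log2 -0.31, SE 0.091, adjusted p = 0.0173). Of the 8 CCT subunits, 1 was higher.

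Whether the change in C22 differs from that in C3 was tested as a difference of differences, which crosses 2 strains and 2 copy numbers that cannot be told apart. None of the 10 passed at an adjusted p of 0.05, in edgeR or in DESeq2, while 3 had an unadjusted p under 0.05. Over all genes 4.75% had a more positive and 7.31% a more negative change in C22. Hspa1b came closest, with a log2 difference of -0.78 (SE 0.29, adjusted p = 0.0850), and Hspa1a had -0.75 (SE 0.36, adjusted p = 0.202). Both passed without the C22 library of 9 weeks, at -1.06 (adjusted p = 0.020) for Hspa1a and -1.0 (adjusted p = 0.0097) for Hspa1b. That library was singled out for its high values, and over all 20 omissions the range was -1.06 to -0.59 for Hspa1a and -1.0 to -0.65 for Hspa1b. Hspd1 had 0.21 (SE 0.098, adjusted p = 0.198). Outside the 10, the change of Hspe1 differed by 1.45 log2 (SE 0.27, adjusted p = 0.00105), being lower in C3 and higher in C22, and that of Bag2 by 1.20 (SE 0.23, adjusted p = 0.00150). Hspe1 ran from 29.2 to 40.8 CPM in WT-C3, from 17.4 to 33.8 CPM in C3, from 14.8 to 20.3 CPM in WT-C22 and from 21.3 to 44.5 CPM in C22. The ranges overlapped between C3 and WT-C3 and did not between C22 and WT-C22. Bag2 ran from 2.44 to 5.65 CPM in WT-C22 and from 8.29 to 10.1 CPM in C22, with no overlap.

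**Figure D2:**
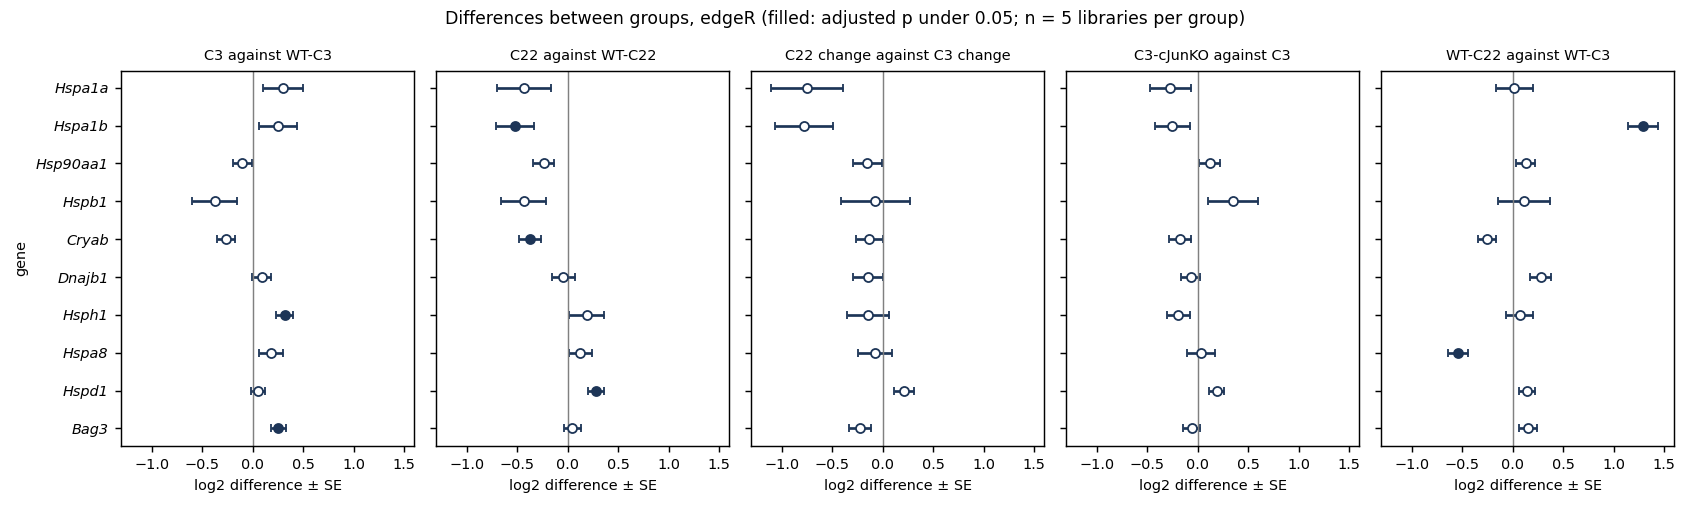
Log2 difference of each of the 10 genes, with its standard error as the bar, in each comparison named above its panel. Filled points had an adjusted p under 0.05 in edgeR (5 libraries per group): Hsph1 and Bag3 in C3, Hspa1b, Cryab and Hspd1 in C22, Hspa1b and Hspa8 between the wild-type groups, and none elsewhere.

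C3-cJunKO was compared with C3 to see which genes depend on c-Jun, a transcription factor of injured Schwann cells. None of the 10 passed in edgeR or DESeq2, and 1, Hspd1, had an unadjusted p under 0.05. Background calls were also few, with 0.222% of all genes higher and 0.329% lower. Hspd1 was at 157, 164, 149, 146 and 160.2 CPM in C3 and at 197, 175, 172, 156 and 179.7 CPM in C3-cJunKO. It was higher at 5 of 5 ages with overlapping ranges, by log2 0.19 (SE 0.074, adjusted p = 0.539). Hsph1 was lower at 5 of 5 ages, by log2 -0.19 (SE 0.12, adjusted p = 0.781). The log2 differences of the 10 ran from -0.27 for Hspa1a to 0.35 for Hspb1, and no gene of the other chaperone lists passed.

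WT-C22 and WT-C3 compare FVB/NRJ with C57BL/6J nerves without a transgene. Hspa1b was higher and Hspa8 lower in FVB/NRJ, and the groups did not overlap for either. Of all genes 9.99% were higher and 11.7% lower, so 1 of 10 in each direction is near the background. Hspa1b was at 10.2, 14.3, 16.8, 17.7 and 15.6 CPM in WT-C3 against 35.3, 29.9, 43.7, 37.5 and 35.0 CPM in WT-C22, which is 2.44-fold (log2 1.29, SE 0.14, adjusted p = 5.46e-05). Hspa8, the constitutive Hsp70, was at 773, 659, 765, 886 and 724 CPM in WT-C3 against 513, 472, 616, 519 and 496 CPM in WT-C22. Every WT-C22 library was below every WT-C3 library, by log2 -0.54 (SE 0.10, adjusted p = 0.00245). Dnajb1 was higher at 5 of 5 ages (log2 0.28, SE 0.10, adjusted p = 0.0749) and Cryab lower at 5 of 5 (log2 -0.25, SE 0.092, adjusted p = 0.0721), both short of the threshold. With age as a block both passed (adjusted p = 0.0188 for Dnajb1 and 0.0324 for Cryab), and Cryab also passed in DESeq2 (adjusted p = 0.0225). Hspe1 was lower in FVB/NRJ (log2 -1.04, SE 0.11, adjusted p = 3.52e-05), the muscle-rich Hspb2, the neighbour of Cryab, was lower (log2 -0.55, SE 0.096, adjusted p = 0.00148), and Unc45a, a myosin chaperone, was higher (log2 0.69, SE 0.11, adjusted p = 0.000576).

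The genes Hspa1a (chr17, 35188166 to 35191132) and Hspa1b (chr17, 35175412 to 35178214) lie side by side on the minus strand and encode nearly the same protein, and Hspa1a itself did not differ between the wild-type groups beyond its error (log2 0.01, SE 0.18, adjusted p = 0.967). Their ratio separated the FVB/NRJ groups from the rest. Hspa1b had 1.23 to 1.59 times the counts of Hspa1a in WT-C3, 1.00 to 1.68 times in C3 and 1.25 to 1.70 times in C3-cJunKO. In WT-C22 it had 2.91 to 3.79 times and in C22 2.82 to 3.97 times as many. No library of the WT-C22 and C22 groups fell within the range of the other 3 groups. An exact two-sided permutation test on the log2 ratio gave p = 0.00794 for WT-C22 against WT-C3 and for C22 against C3, the smallest that 5 against 5 libraries allow (adjusted p = 0.0198 over 5 comparisons). Between C22 and WT-C22, C3 and WT-C3, and C3-cJunKO and C3 the same exact permutation test gave p = 0.540, 0.532 and 0.643. Reads were aligned to GRCm39, which is the sequence of C57BL/6J, and a strain difference in RNA level and one in how many reads place uniquely cannot be told apart here for Hspa1b, Hspa8 or Hspe1.

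**Figure D3:**
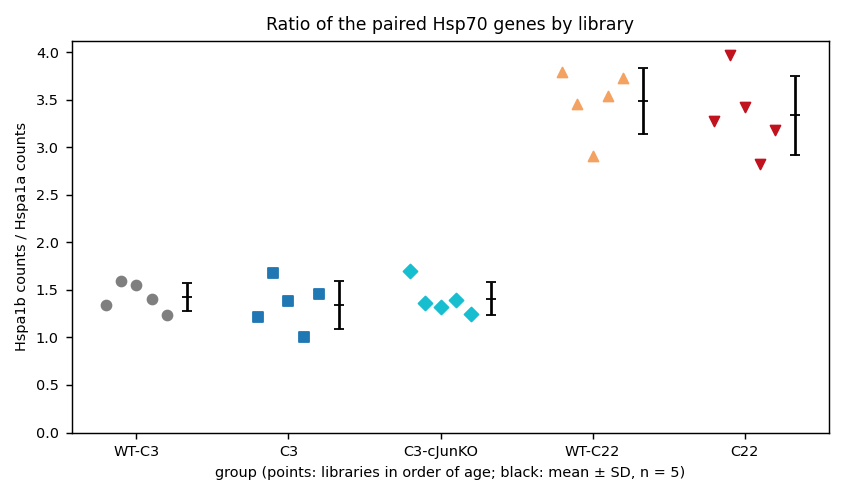
Ratio of Hspa1b to Hspa1a counts in each library, by group and in order of age, on an axis from 0. Black marks give the mean ± SD of 5 libraries, from 1.35 to 1.43 in WT-C3, C3 and C3-cJunKO and from 3.34 to 3.49 in WT-C22 and C22.

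Age was tested as a factor over all 25 libraries with group as a term, at which 14.8% of all genes passed. Among the 10, Hspb1 (adjusted p = 0.00295) and Hspa1a (adjusted p = 0.0435) passed, and Hspa1b did not (adjusted p = 0.10), although it passed in DESeq2's likelihood ratio test (adjusted p = 0.0398) and with library size only (adjusted p = 0.0311). Hspb1, a small heat shock protein of muscle, vessels and neurons, rose with age by 0.10 log2 per week (SE 0.017). It was at 21.3, 29.0, 43.6, 44.3 and 43.3 CPM in WT-C3 and at 19.4, 30.9, 26.0, 24.8 and 37.7 CPM in C3. It was at 20.2, 29.9, 33.2, 39.9 and 54.2 CPM in C3-cJunKO, and rose at each step of age. It was at 27.8, 21.5, 45.0, 48.2 and 52.0 CPM in WT-C22 and at 23.5, 28.5, 33.0, 35.8 and 25.0 CPM in C22, where it peaked at 9 weeks. The library of 3 weeks was the lowest in 4 of 5 groups and the second lowest in WT-C22. Without the 5 libraries of 3 weeks neither gene passed (adjusted p = 0.238 for Hspb1 and 0.438 for Hspa1a), and Hspa1a also lost its call on leaving out any of 16 libraries. The slope of Hspa1a was 0.07 log2 per week (SE 0.021).

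Within single groups a spline of age was fitted, at which few genes passed: 0.564% in WT-C3, 1.92% in C3, 2.7% in C3-cJunKO, 2.59% in WT-C22 and 0.542% in C22. Hspb1 passed in C3-cJunKO (adjusted p = 0.0302) and WT-C22 (adjusted p = 0.0440), and no other member passed in any group in edgeR. The call in C3-cJunKO was lost whichever of its 5 libraries was left out. That in WT-C22 was lost without the library of 3 weeks (adjusted p = 0.0549) or 5 weeks (adjusted p = 0.0668), with a spline of 2 degrees of freedom (0.0627) and with the log2 CPM filter (0.0506). The linear slope of Hspb1 was 0.15 log2 per week (SE 0.035) in C3-cJunKO, 0.13 (SE 0.035) in WT-C22, 0.12 (SE 0.038) in WT-C3, 0.08 (SE 0.035) in C3 and 0.02 (SE 0.037) in C22, and whether the slopes differ was not tested. The sum of the muscle markers in WT-C22 was 11580 CPM at 5 weeks, where Hspb1 was the lowest of its group, and 24.3 CPM at 9 weeks, where Hspb1 was at 48.2 CPM. In C3 the library of 12 weeks was the highest of its group in both, with 7071 CPM of muscle markers. Markers of other cells were tested with age as a factor over all 25 libraries, at which 14.8% of all genes passed. By that test 5 of 5 adipocyte, 4 of 5 perineurial, 3 of 4 mast cell and 3 of 6 endothelial and pericyte markers passed. So did 3 of 6 fibroblast, 3 of 5 myelinating Schwann cell, 1 of 5 repair Schwann cell and 1 of 11 muscle markers. Of the 7 macrophage, 4 blood and 4 neuron markers, 0 passed. The part of these markers in the Hspb1 values was not tested.

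Single libraries were examined by the deviation of each gene from the median of its group. In 2 of the 25 libraries, 7 of the 10 genes were at the highest level of their group: WT-C22 at 7 weeks and C22 at 9 weeks. In the others the number ran from 0 to 5. The share of all genes that were highest in these libraries was 11.5% for WT-C22 at 7 weeks and 20.5% for C22 at 9 weeks. The mean deviation of the 10 was 0.24 log2 in the first and 0.27 log2 in the second. The C3 library of 5 weeks was the only one in which all 10 genes lay above the median of their group, by 0.04 log2 for Bag3 to 0.42 log2 for Hspa8. In it 5 of 10 were the highest of the group, against 12.9% of all genes, and the mean deviation was 0.20 log2. With group and age means both removed, its mean residual of 0.21 log2 was the largest of the 25 libraries, next to 0.20 in WT-C22 at 7 weeks and 0.18 in C22 at 9 weeks. The largest upward deviation of a member was 0.99 log2, of Hspa1a in C22 at 9 weeks. By Dixon's gap test, 5 of the 50 combinations of member and group had a library that stood apart, which is 10.0% against 7.67% over all genes.

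In the WT-C22 library of 7 weeks, Hsph1 stood apart at 79.2 CPM against 48.3 to 51.0 CPM in the other 4, which is 1.59 times the group's median. Hspa1a was at 15.0 CPM against 8.64 to 10.6 CPM, and Hspa1b, Hsp90aa1, Dnajb1, Hspa8 and Hspd1 were also the highest of their group. Cryab, Hspb1 and Bag3 were not. The same library had the highest level of 6 of 7 glucocorticoid-responsive genes, among them Fkbp5 (2.25 times the median), Zbtb16 (2.22 times), Tsc22d3 (2.19 times) and Per1 (1.73 times). This was not particular to it: WT-C3 at 9 weeks was also the highest in 6 of the 7, C3-cJunKO at 12 weeks in 5, and C3 at 5 weeks in 4 with a median deviation of 0.78 log2, close to the 0.79 log2 here. In C22 at 9 weeks, 3 of the 7 were the highest of their group. The WT-C22 library of 7 weeks was the highest in 7 of 18 immediate early genes. Fosb was at 2.22 and Dusp1 at 1.62 times the median, while Fos (1.07 times) and Egr1 (1.00 times) were not raised. By count alone, other libraries had as many or more: WT-C3 at 7 weeks was the highest in 11 and C3-cJunKO at 12 weeks in 9. C3 at 9 weeks and C22 at 3 weeks were the highest in 7 each. The share of all genes that were highest differed between these libraries. It was 11.5% in WT-C22 at 7 weeks, 18.4% in WT-C3 at 7 weeks and 22.5% in WT-C3 at 9 weeks. It was 22.8% in C3-cJunKO at 12 weeks, 23.8% in C22 at 3 weeks and 34.7% in the shallow C3 library of 9 weeks. In WT-C22 at 7 weeks the cold-inducible Cirbp was at 0.69 times the median. Among the genes furthest above the median in this library were Ccn2 (2.59 times) and Wee1 (2.56 times). What share of the chaperone values goes with these genes was not tested.

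In the C22 library of 9 weeks, Hspa1a was at 14.1 CPM against 5.26 to 7.72 CPM in the other 4, and Hspa1b at 39.8 CPM against 17.7 to 24.5 CPM. Hsph1 was at 83.3 CPM against 45.0 to 63.5 CPM. Hspb1, Dnajb1, Hspd1 and Bag3 were the highest of the group by smaller margins, and Cryab was the lowest at 507 CPM. Markers of other cells moved in the same library. All 4 blood markers were the highest of the group, with Alas2 at 3.68 and Hba-a1 at 3.08 times the median, as were all 5 adipocyte markers, with Lep at 2.90 times. All 4 blood markers were also the highest of their group in WT-C3 at 9 weeks, C3 at 7 weeks and WT-C22 at 5 weeks. All 5 adipocyte markers were also the highest in WT-C3 at 7 weeks, C3 at 12 weeks and C3-cJunKO at 12 weeks. In C22 at 9 weeks, 6 of 7 macrophage markers were the highest of the group, a count also reached in WT-C3 at 7 weeks. In the same C22 library 5 of 6 endothelial and pericyte markers were the highest. Its myelin markers summed to 11490 CPM, the lowest of all libraries. Immediate early genes were the highest in 5 of 18, and Fos was at 0.78 times the median. The part of these cells in the chaperone values was not tested. Of the 32 other cytosolic chaperones and co-chaperones, 6 were the highest of their group in this library, against 20.5% of all genes. Their median deviation was 0.00 log2. The Hspb8 gene, a partner of Bag3, was among the 6, at 1.55 times the median. Of the 8 CCT subunits, 0 were the highest. Other libraries had more: C3-cJunKO at 3 weeks had 19 of the 32 and 8 of 8 CCT subunits, against 33.75% of all genes. C22 at 5 weeks had 16 of the 32 and 8 of 8, against 26.1%.

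**Figure D4:**
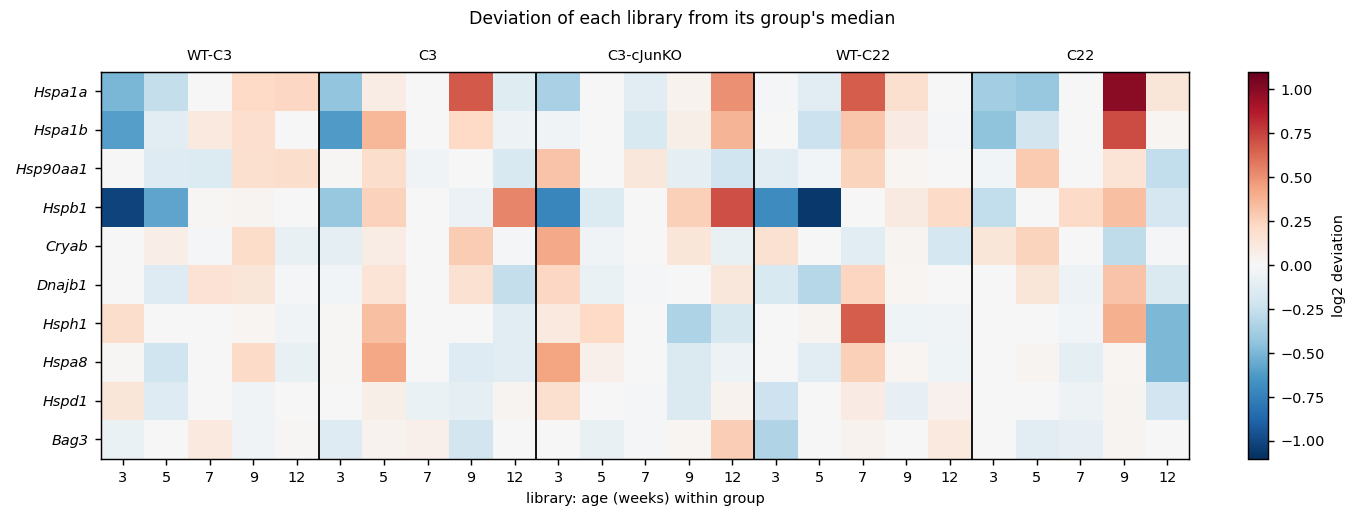
Deviation of each of the 10 genes (rows) in each library (columns, by group and age in weeks) from the median of its group, in log2, with red above and blue below the median. C3 at 5 weeks lies above the median in all 10 rows, C22 at 9 weeks in 9, and WT-C22 at 7 weeks and WT-C3 at 9 weeks in 8 each, and Hspb1 is blue at 3 weeks in all 5 groups.

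**Figure D5:**
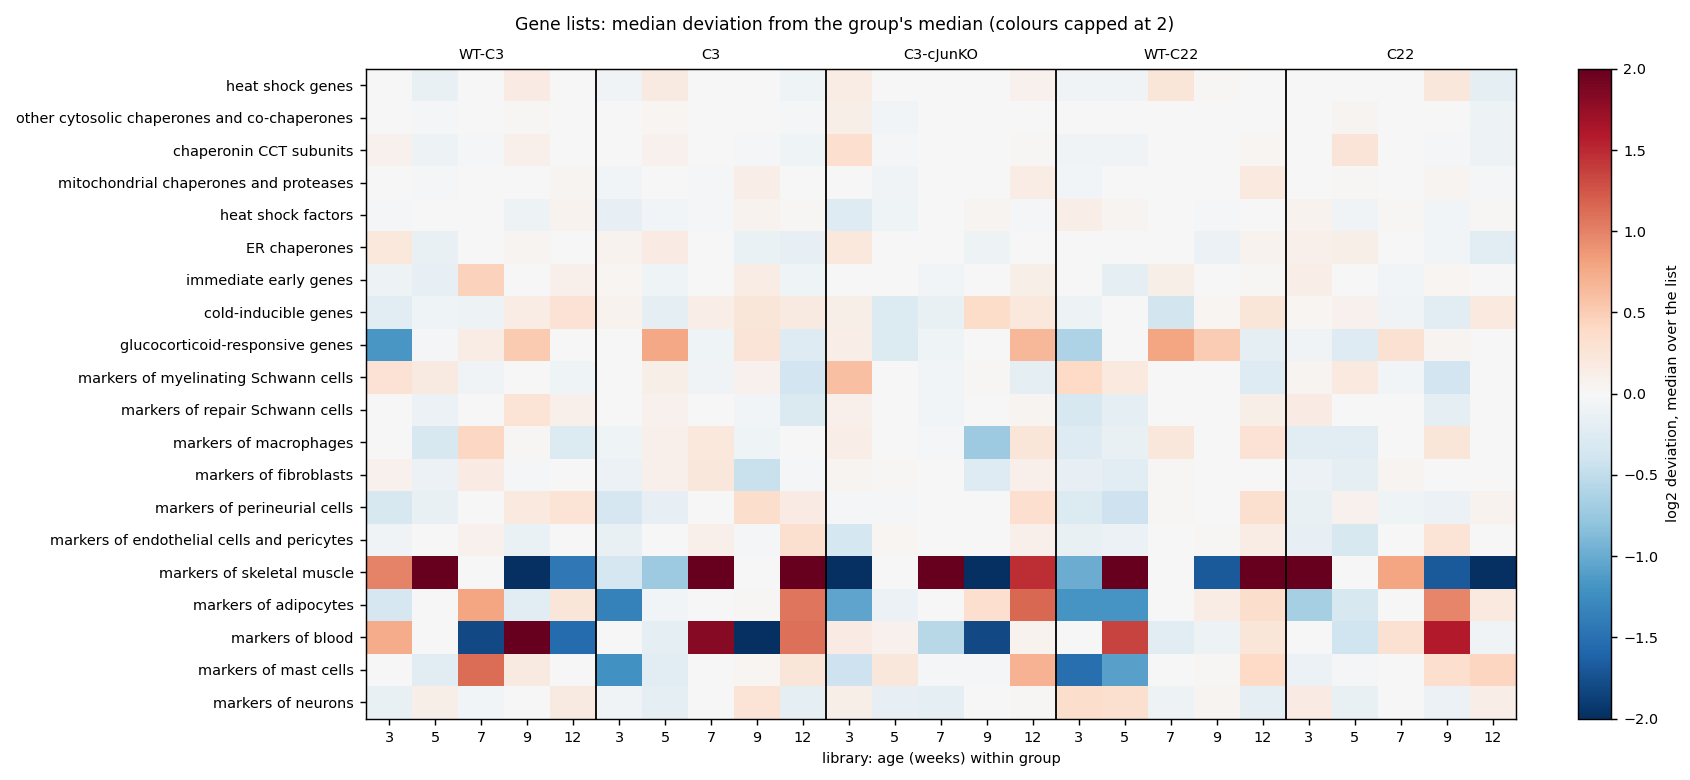
Median deviation, in log2, of each gene list (rows) in each library (columns, by group and age in weeks) from the median of its group; colours are capped at 2. Glucocorticoid-responsive genes are highest in WT-C22 at 7 weeks (0.79) and C3 at 5 weeks (0.78), blood markers in WT-C3 at 9 weeks (2.14), C3 at 7 weeks (1.82) and C22 at 9 weeks (1.58), and muscle markers vary in every group.

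The members did not move as 1 block. Within groups, Hspb1 and the inducible Hsp70 genes varied most: the standard deviation of log2 CPM was 0.45 for Hspb1, 0.40 for Hspa1a and 0.32 for Hspa1b, against a median of 0.20 over all genes. Hspd1 (0.10) and Bag3 (0.12) varied less than most genes. With group means removed, over 25 libraries that share ages and depth, Hspa1a and Hspa1b ran closest (Pearson r = 0.88), and the pair share sequence. Hsp90aa1 with Hspa8 (r = 0.79) and Hsph1 with Hspa8 (r = 0.74) came next. Cryab ran opposite to Bag3 (r = -0.50) and Hspb1 (r = -0.41). The genes outside the set most like each member by the same measure included Rgcc for Hspa1a (r = 0.86) and Hspa1b (r = 0.87), Crim1 (r = 0.95) and Fhl1 (r = 0.91) for Hspb1, and Ttc9 (r = 0.92) for Cryab. Ptges3 (r = 0.82), the Hsp90 co-chaperone p23, was the closest to Hsp90aa1, Pdia3 (r = 0.84) to Hspa8, Psmd12 (r = 0.79) to Hspd1, Ccnd3 (r = 0.83) to Dnajb1, Sfpq (r = 0.77) to Hsph1 and Adamts1 (r = 0.82) to Bag3.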

How the data were processed

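Sciatic nerve RNA of 25 pools (5 groups, 5 ages) was sequenced by the authors as directional poly(A) libraries. Per the submitters' processing notes, reads were checked with FastQC 0.11.9, trimmed with cutadapt 2.10, aligned with STAR 2.7.5a, deduplicated by molecular identifier with UMI-tools 1.1.1 and counted with HTSeq 0.12.4. The authors deposited whole-number counts per gene, unnormalized, and reads without a unique alignment (2.76% to 3.93%) were not counted to genes. The strand setting of the counting is not given in the sources used here. The 5 summary lines of each library stayed out of library sizes and tests.

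Genes with log2 CPM above 1 in at least 7 of 25 libraries were kept (13993 of 56956). Groups were compared with edgeR 4.0.16 (quasi-likelihood test, TMM scaling, R 4.3.3), with Benjamini-Hochberg adjustment over all genes kept and a threshold of 0.05. Age within a group was fitted as a natural spline with 3 degrees of freedom. Deviations within groups used log2 CPM with a prior count of 2. The fits were tested on simulated data. Alternatives were DESeq2 1.42.0, other scalings and filters, age as a block and leaving out each library. All 10 members are named, and of every other list up to 4 genes with the largest change among those called. In single libraries, genes were named after their values were seen. Some items, among them 1 marker of myelinating Schwann cells, are not reported here. The members and lists were chosen with earlier results of these data known. In C3-cJunKO against C3 the deviations of libraries of the same age had a positive correlation over genes, of 0.123 to 0.615 at the 5 ages. Libraries of unlike age were not compared in this way. The block called no member in that comparison, as without it. Between the wild-type groups the correlation of libraries of the same age was 0.046 to 0.653, lowest at 12 weeks. The block there added Dnajb1 and Cryab to the calls. The correlation ran from -0.224 to 0.362 for C3 against WT-C3 and from -0.151 to 0.436 for C22 against WT-C22.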

Additional observations from a re-analysis of the deposited data

Results flagged for a closer look

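Among 5 libraries of a group, 5 values of the 10 genes stood further from the rest than Dixon's critical value of 0.71 allows, which is 10.0% of 50 combinations of gene and group, against 7.67% over all genes in these groups and about 1 in 20 by chance. Hsph1 in WT-C22 at 7 weeks had a gap over range of 0.891 (1.59 times the group's median), and Hsph1 in WT-C3 at 3 weeks one of 0.752 (1.15 times). Hspa8 in C3 at 5 weeks was high with 0.737 (1.34 times) and Hspa8 in C22 at 12 weeks was low with 0.763 (0.71 times). Bag3 in WT-C22 at 3 weeks was low with 0.737 (0.79 times).

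For 3 genes outside the 10, the change in C22 differed from that in C3 by a test of the difference itself. They were 2 of 32 other cytosolic chaperones and 1 of 12 mitochondrial genes, against 4.75% of all genes in this direction. The log2 difference was 1.45 for Hspe1, 1.20 for Bag2 and 0.37 for Hspa14, a ribosome-associated Hsp70 (adjusted p = 0.0479 in edgeR). Hspa14 ran from 26.5 to 32.8 CPM in WT-C3, from 26.5 to 30.1 CPM in WT-C22 and from 32.4 to 37.8 CPM in C22. In C3 it was at 19.7 CPM in the shallow library of 9 weeks and at 28.5 to 29.3 CPM in the others. The difference for Hspa14 without that library was not tested. Strain and transgene line cannot be told apart in this difference.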

How the results depend on the processing

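Of 725 values of single members under another setting, 695 kept direction and side of the threshold, and of 122 counts of called members 104 did. In C3, the members called lower became 1 (Cryab) with DESeq2 and with age as a block, and those called higher became 1 without a filter and with all 25 libraries in 1 fit. In C22, the members called lower became 0 with library size only and 1 without a filter, with filterByExpr and with Hspa1a and Hspa1b summed. In the difference between C22 and C3 changes, 2 (Hspa1a, Hspa1b) were called lower with age as a block and without C22 at 9 weeks and WT-C22 at 7 weeks, an alternative chosen after seeing the data. Between wild types, 2 were lower with DESeq2 and with the block, and 2 higher with the block. The block changed no other count of calls. An age effect over all groups was found in 0 without the 5 libraries of 3 weeks, in WT-C22 in 0 with a spline of 2 degrees of freedom or the log2 CPM filter, and with DESeq2's likelihood ratio test in 1 in WT-C3 and 2 in C22. The cause was not tested.

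Signs reversed with library size only for Dnajb1 in C22 (0.12) and for the C22 minus C3 change of Hspb1 (0.034) and Hspa8 (0.039), and with the block for Hspa1a between wild types (-0.0029). Leaving out 1 library, members called higher in C3 ran from 1 to 2 and lower from 0 to 1, lower in C22 from 1 to 3, lower in the difference from 0 to 2, and higher and lower between wild types from 1 to 2 each. Those with an age effect ran from 1 to 3 over all groups, from 0 to 0 in C3-cJunKO and from 0 to 1 in WT-C22. The log2 difference ran from -0.015 to 0.087 for Bag3 and from -0.11 to 0.037 for Dnajb1 in C22, from -0.068 to 0.14 for Hspa8 in C3-cJunKO, and between wild types from -0.15 to 0.097 for Hspa1a, from -0.032 to 0.26 for Hspb1 and from -0.097 to 0.11 for Hsph1. In the difference of changes it ran from -0.13 to 0.050 for Hspa8, from -0.19 to 0.093 for Hspb1 and from -0.26 to 0.023 for Hsph1. Library size only gave 5485 genes higher and 1736 lower in C22, against 3070 and 2869, and 2584 and 1034 in C3, against 1743 and 1602. With 44 counts each for Hspa1a and Hspa1b, depth limits the C3 library of 9 weeks most.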
